A study of Homo sapiens with 6 samples.

Results

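The collagen chain genes encode the alpha chains that assemble into the collagens of the extracellular matrix. They were taken as the protein-coding genes of the deposited count table whose symbol is COL, a number, A and a number, which gave 43 of the 31831 genes listed and of the 17551 listed as protein-coding. By the assemblies their chains form, 11 are fibrillar, 6 belong to the basement membrane, 3 form networks, 5 form beaded filaments, 1 forms anchoring fibrils, 10 are fibril-associated (FACIT), 3 are transmembrane, 2 are multiplexins and 2 fall outside these types. Of the 43 genes, 24 passed the low-count filter and were tested, and 19 did not.

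Each collagen molecule is a helical trimer of alpha chains, made in the endoplasmic reticulum, where prolines and lysines are hydroxylated before the trimer is exported. Fibrillar collagens are the tensile fibres of interstitial matrix, while collagen IV is the sheet-forming collagen of basement membranes, including the tubular basement membrane on which kidney epithelium sits. Excess collagen in the tubulointerstitium and a thickened basement membrane are known features of diabetic kidney disease.

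HK-2, a long-used immortalized line derived from human proximal tubule epithelium, was infected with a control lentivirus (HG-NC, 3 libraries) or with a lentivirus overexpressing hnRNP-F (HG-OE, 3 libraries), and poly(A) RNA was sequenced. The labels name the control only as a control plasmid. Per the study's methods, both groups were kept in 30 mM glucose for 72 h, so high glucose is common to all 6 libraries, and libraries in mannitol were not analysed here. The cells are 1 line, and the labels do not say whether the 3 libraries of a group came from separate cultures. The study's text calls them 3 biological replicates and describes parallel wells for each group. With 1 line, p-values measure only the spread between these libraries. Because RNA was taken from whole cultures, more RNA per cell and more cells of a kind cannot be told apart.

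The libraries held 25507595 to 29444841 counted read pairs, of which 0.202% to 0.247% lay on collagen genes. The targeted gene, HNRNPF, had counts of 7733, 8623 and 8692 in HG-NC replicates 1 to 3 and of 12492, 13155 and 12397 in HG-OE replicates 1 to 3, with a fitted log2 fold change of 0.48. HG-OE replicate 3 stood apart from the other HG-OE libraries, with a chi-square per degree of freedom of 10.6 and 10.2 against them, compared with 2.58 between those and 2.11 to 3.28 between HG-NC libraries. In this library 12 of the 13 squamous keratinocyte markers in the table were at their highest, with a summed level of 15.7 FPKM (fragments scaled to gene length and library size, as deposited) against 1.26 to 1.66 in the others, and 11 of 13 hepatocyte markers were at their highest, summing to 148.4 FPKM against 48.6 to 84.0. KRT5 and ALB reached 2.44 and 38.4 FPKM there, and at most 0 and 0.73 FPKM elsewhere. Not all members went this way: KRT14 reached only 0.04 FPKM in HG-OE replicate 3. SERPINA1 carried most of the hepatocyte sum in the other libraries, and at 71.2 FPKM in HG-OE replicate 3 it lay below the other HG-OE libraries (82.9 and 82.3). Of the 6 epithelial markers, 4 were also at their highest in HG-OE replicate 3, summing to 388.0 FPKM against 235.1 to 257.5 in the others. CDH1 had 384 counts there and 2 to 10 in the others, while EPCAM and KRT19 were not at their highest there. HG-NC replicate 3 also held hepatocyte transcripts, with 78 counts of ALB, 65 of FGA and 34 of HP, which had 33 in HG-OE replicate 3. Among 12 fibroblast markers the summed level was 31.3 to 33.1 FPKM in all 6 libraries, of which FBLN1, LUM and TWIST1 carried most. DCN and POSTN were at most 0.02 FPKM, and PDGFRB and TCF21, named after their values were seen, were called higher in HG-OE, from at most 16 and 5 counts to at least 59 and 33. The endothelial markers summed to at most 0.11 FPKM. Of the proximal tubule markers, PAX8 and CDH16 were above 10 FPKM in every library, while LRP2, CUBN and AQP1 were at or near 0. Collagen genes whose call changed without HG-OE replicate 3 are therefore given with and without it, and the part of the marker levels in these results was not tested.

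The collagens of these cells were mainly of types VI and IV. By FPKM, which allows levels of different genes to be compared, COL6A2 was highest, with a mean ± SD over n = 3 libraries of 30.1 ± 0.174 in HG-NC and 36.5 ± 4.69 in HG-OE, followed in both groups by COL4A2, COL4A1 and COL6A1. These 4 genes carried 58.0% to 58.5% of the summed collagen FPKM in HG-NC and 53.8% to 56.8% in HG-OE. COL14A1, COL8A1, COL18A1, COL7A1, COL16A1 and COL9A2 came next in HG-NC. In HG-OE the order changed among these: COL18A1, COL7A1 and COL9A2 took ranks 5, 6 and 7, and COL8A1, COL14A1 and COL16A1 ranks 8, 9 and 10. The other 33 genes lay below 3 FPKM in both groups, and a mean of at least 1 FPKM was reached by 14 genes in HG-NC and 13 in HG-OE.

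**Figure D1:**
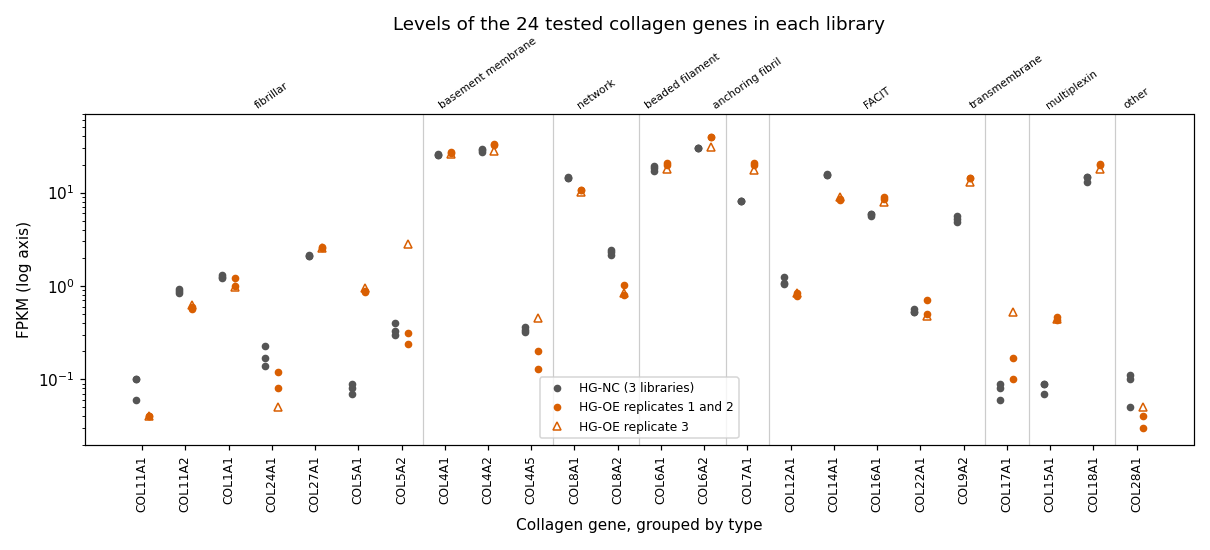
FPKM on a log axis of the 24 tested collagen genes, grouped by type; grey points are the 3 HG-NC libraries, orange points HG-OE replicates 1 and 2, and open triangles HG-OE replicate 3. COL6A2, COL4A2 and COL4A1 lie highest in all libraries, and the triangle leaves the orange points by the widest margin at COL5A2.

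The summed collagen level was 170.8, 175.7 and 178.4 FPKM in HG-NC replicates 1 to 3 and 209.2, 211.9 and 190.6 FPKM in HG-OE replicates 1 to 3. All HG-OE libraries lay above all HG-NC libraries, with means of 175.0 ± 3.85 and 203.9 ± 11.6 FPKM.

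Of the 24 tested genes, 10 changed at least 2-fold at an adjusted p under 0.05 (edgeR's quasi-likelihood test, Benjamini-Hochberg adjustment over all 17142 genes tested), while 5.82% of all tested genes did. Higher in HG-OE were COL5A1, COL15A1, COL17A1, COL5A2, COL9A2 and COL7A1, 6 genes beside a background of 3.69%. Lower were COL8A2, COL28A1, COL11A1 and COL24A1, 4 genes beside a background of 2.13%. Without the fold threshold 19 genes passed, beside 51.8% of all genes, 11 of them higher and 8 lower, beside 25.9% higher and 25.9% lower. The groups did not overlap for 18 of the 24 genes, beside 59.0% of all genes, and the difference was not tested. The median log2 fold change of the 24 was 0.09, and that of all tested genes was 0.01. The 4 most abundant collagens had log2 fold changes of 0.08 to 0.29.

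Without HG-OE replicate 3, 9 of the 25 collagen genes tested in that fit were called, of which 7 were also called with it. The share of all genes called in that fit was not computed here. COL17A1, COL5A2 and COL24A1 were no longer called, and COL4A5 and COL5A3 were called in addition. The smallest p that an exact two-sided permutation test of 3 libraries against 3 can give is 0.1, which every gene without overlap of the groups reached.

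**Figure D2:**
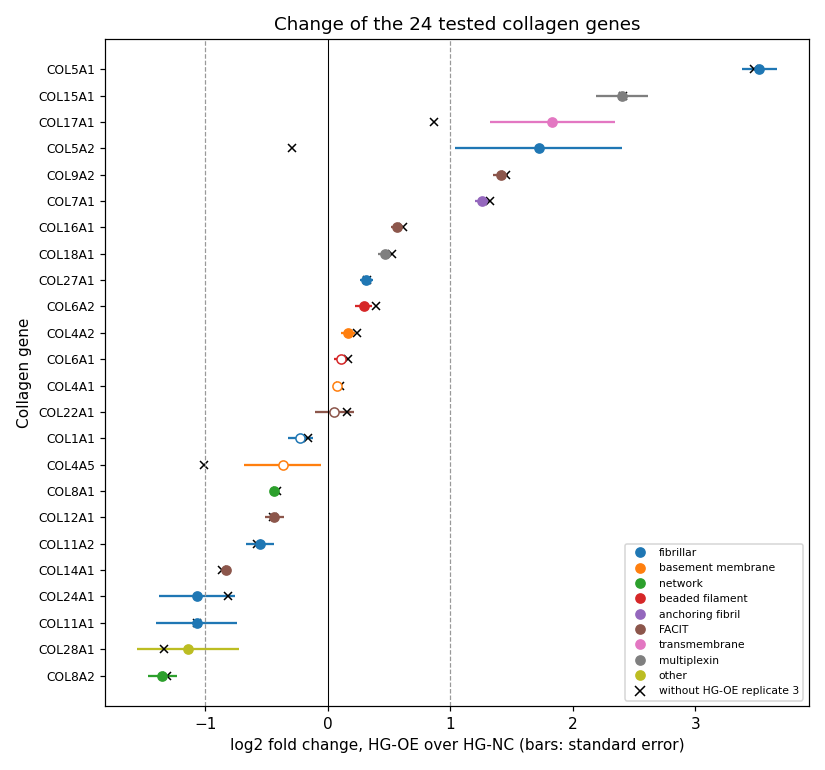
log2 fold change of the 24 tested collagen genes, HG-OE over HG-NC, with standard errors, coloured by type; filled points have an adjusted p under 0.05, dashed lines mark a 2-fold change, and crosses give the value without HG-OE replicate 3. The cross leaves the point furthest at COL5A2, from 1.72 to -0.29, and also at COL17A1 and COL4A5.

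Of the basement membrane chains, COL4A1 and COL4A2 differed little between the groups. These genes, whose products form the ubiquitous collagen IV trimer, were among the most abundant collagens. COL4A1 had 10463, 11368 and 11715 counts in HG-NC replicates 1 to 3 and 12926, 13005 and 12481 in HG-OE replicates 1 to 3. Scaled to library size by TMM as CPM, the group means were 416.9 ± 4.68 and 439.4 ± 11.5, a log2 fold change of 0.08 (SE 0.0359) with an adjusted p of 0.0931 in edgeR's quasi-likelihood test, and 0.10 (adjusted p = 0.0151) without HG-OE replicate 3. COL4A2 had 14806, 16771 and 17437 counts in HG-NC and 20493, 21285 and 17877 in HG-OE, where replicate 3 lay within the HG-NC range once scaled. Its log2 fold change was 0.17 (SE 0.0568, adjusted p = 0.0254), and 0.24 without HG-OE replicate 3.

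COL4A1 and COL4A2 lie head to head on chromosome 13 and are transcribed away from a shared promoter. The RefSeq transcript starts lie 126 bases apart on GRCh38.p14, and the first 100 of these bases, which lie in no exon of either gene in GENCODE, are shown because the RefSeq starts of both genes flank the interval. GENCODE also annotates a longer COL4A2 transcript that starts inside COL4A1, at 110305812. The stretch is chr13:110307158-110307257 on the plus strand, with COL4A1 leaving to the left and COL4A2 to the right, and capitals mark a CCAAT box and a GC box.
COL4A1-COL4A2 shared promoter: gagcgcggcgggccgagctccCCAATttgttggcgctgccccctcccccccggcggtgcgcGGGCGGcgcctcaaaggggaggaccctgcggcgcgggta
The GC content of the stretch was 78.0%, against a median of 58.0% over the 250 bases before all RefSeq starts in the promoter table. The ratio of COL4A2 to COL4A1 FPKM was 1.08, 1.12 and 1.13 in HG-NC and 1.21, 1.25 and 1.09 in HG-OE, so the groups overlapped. An annotated antisense gene inside COL4A2, COL4A2-AS1, had 29, 41 and 30 counts in HG-NC and 51, 52 and 25 in HG-OE (log2 fold change 0.24, adjusted p = 0.532 in edgeR's quasi-likelihood test). Whether the counting used strand is not given in the sources used here, and reads of this gene and of COL4A2 may therefore not be separated.

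The minor collagen IV chains were scarce. COL4A5, a chain of the specialised kidney basement membranes that is mutated in Alport syndrome, had 123, 121 and 119 counts in HG-NC and 50, 80 and 176 in HG-OE. HG-OE replicates 1 and 2 were below every HG-NC library and replicate 3 was above them all, and the log2 fold change was -0.37 (SE 0.315, adjusted p = 0.348). Without HG-OE replicate 3 it was -1.01 (adjusted p = 5.66e-06, edgeR's quasi-likelihood test). Its head-to-head neighbour COL4A6, whose RefSeq start lies 379 bases from that of COL4A5, had at most 3 counts in 5 libraries and 97 in HG-OE replicate 3. COL4A3 and COL4A4, the partners of COL4A5 in the glomerular basement membrane, start 418 bases apart. COL4A3 had 1, 0 and 0 counts in HG-NC and 0, 0 and 19 in HG-OE. COL4A4 had 6, 1 and 2 counts in HG-NC and 0, 5 and 26 in HG-OE. All 3 of these chains therefore had most of their counts in a single library. For a count of 0 the upper limit is 3 read pairs in that library, which covers counting error only.

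Among the fibrillar chains, COL5A1 showed the largest change of the 24 tested collagens. It encodes the main chain of collagen V, which sits inside collagen I fibrils and regulates their diameter. It had 26, 30 and 24 counts in HG-NC replicates 1 to 3 and 325, 323 and 356 in HG-OE replicates 1 to 3. All HG-OE libraries lay close together and far above all HG-NC libraries. Scaled to library size, COL5A1 rose from 0.997 ± 0.127 to 11.5 ± 0.584 CPM, a log2 fold change of 3.52 (SE 0.142, adjusted p = 6.23e-10, edgeR's quasi-likelihood test), or 11.5-fold. It was 3.48 without HG-OE replicate 3. In FPKM the level reached 0.907 ± 0.0473, still low beside collagens IV and VI.

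The 250 bases before the RefSeq start of COL5A1, chr9:134641553-134641802 on the plus strand of GRCh38.p14, are shown because this gene changed most of those tested, with GC boxes (GGGCGG or its complement CCGCCC) in capitals.
COL5A1 promoter: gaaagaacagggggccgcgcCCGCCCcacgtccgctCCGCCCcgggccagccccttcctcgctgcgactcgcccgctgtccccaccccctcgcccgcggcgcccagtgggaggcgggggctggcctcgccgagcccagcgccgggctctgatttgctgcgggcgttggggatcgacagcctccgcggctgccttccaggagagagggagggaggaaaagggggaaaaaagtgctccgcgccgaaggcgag
It holds 2 GC boxes and no TATAAA, with a GC content of 74.0%.

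The partner chain COL5A2 did not follow. It had 63, 88 and 75 counts in HG-NC and 74, 59 and 679 in HG-OE, so that replicates 1 and 2 lay at the level of HG-NC and replicate 3 alone was high. The log2 fold change of 1.72 (SE 0.681, adjusted p = 0.0481, edgeR's quasi-likelihood test) became -0.29 (adjusted p = 0.218) without that library, and the call of COL5A2 rests on it. Its 45 well-counted neighbours within 10 Mb moved by a median of -0.44 (log2). COL5A3, a further chain of collagen V with a restricted expression, was below the filter, with 3, 2 and 5 counts in HG-NC and 11, 12 and 7 in HG-OE. Without HG-OE replicate 3 COL5A3 was tested, at a log2 fold change of 1.64 (adjusted p = 0.0205, edgeR's quasi-likelihood test). The ratio of COL5A2 to COL5A1 FPKM was 3.75, 4.44 and 4.71 in HG-NC, and 0.348, 0.276 and 2.92 in HG-OE.

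Of collagen I, the major fibril collagen of scar tissue, only COL1A1 was measured at more than a trace in all libraries. COL1A1 had 318, 359 and 345 counts in HG-NC and 294, 367 and 289 in HG-OE, and the groups overlapped (log2 fold change -0.23, SE 0.104, adjusted p = 0.0859 in edgeR's quasi-likelihood test). COL1A2, its partner in the collagen I trimer, had 0 counts in all 3 HG-NC libraries and in HG-OE replicates 1 and 2, and 141 in HG-OE replicate 3. COL3A1, which is deposited with collagen I in fibrosis and whose gene lies 19151 bases from COL5A2 on chromosome 2, had 3, 3 and 1 counts in HG-NC and 1, 2 and 10 in HG-OE.

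COL11A1 and COL24A1 were the fibrillar chains called lower, both at low counts. COL11A1, a cartilage fibril chain related to COL5A1, had 25, 17 and 28 counts in HG-NC and 13, 11 and 12 in HG-OE (log2 fold change -1.07, SE 0.330, adjusted p = 0.0145). COL24A1, a minor fibrillar chain of bone, had 37, 48 and 69 counts in HG-NC and 37, 26 and 16 in HG-OE, which touch in counts but do not overlap once scaled (log2 fold change -1.07, SE 0.310, adjusted p = 0.0103, both from edgeR's quasi-likelihood test). Without HG-OE replicate 3 the value for COL24A1 was -0.81, under 2-fold, and with the median of neighbouring genes removed COL11A1 and COL24A1 fell to -0.98 and -0.95. COL11A2 also fell, from 7.25 ± 0.399 to 4.94 ± 0.213 CPM (log2 fold change -0.55, adjusted p = 0.00117). COL27A1 was the most abundant fibrillar chain by FPKM, with 2.09 ± 0.0252 in HG-NC and 2.58 ± 0.0462 in HG-OE, and rose by a log2 fold change of 0.32 (adjusted p = 0.000123, edgeR's quasi-likelihood test). COL2A1, the cartilage collagen II chain, was under the filter, with at most 4 counts in a library. In all, 3 of the 7 tested fibrillar chains rose, COL5A2 among them, and 3 fell at an adjusted p under 0.05. Of all tested genes, 25.9% rose and 25.9% fell at that threshold. The 7 chains had a median log2 fold change of -0.23.

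The network-forming chains of collagen VIII both fell. Collagen VIII forms the hexagonal lattice of Descemet's membrane and is also made by vascular and mesangial cells. COL8A2 had 309, 303 and 349 counts in HG-NC and 155, 124 and 130 in HG-OE, and scaled to library size it fell from 11.9 ± 0.671 to 4.68 ± 0.580 CPM. The log2 fold change was -1.35 (SE 0.116, adjusted p = 5.06e-07, edgeR's quasi-likelihood test), the largest fall among the tested collagens, and -1.31 without HG-OE replicate 3. COL8A1, the more abundant chain, had 3870, 4161 and 4175 counts in HG-NC and 3267, 3355 and 3184 in HG-OE (log2 fold change -0.44, SE 0.0394, adjusted p = 8.47e-07). Its 39 neighbours within 10 Mb moved by a median of -0.29 (log2). The ratio of COL8A2 to COL8A1 FPKM was 0.161, 0.147 and 0.168 in HG-NC and 0.0958, 0.0743 and 0.0822 in HG-OE, without overlap. COL10A1, the network chain of hypertrophic cartilage, had at most 6 counts in any library.

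The 250 bases before the RefSeq start of COL8A2, chr1:36125223-36125472 of GRCh38.p14, are shown in the direction of the gene (minus strand) as those of the tested collagen with the largest fall, with GC boxes in capitals.
COL8A2 promoter: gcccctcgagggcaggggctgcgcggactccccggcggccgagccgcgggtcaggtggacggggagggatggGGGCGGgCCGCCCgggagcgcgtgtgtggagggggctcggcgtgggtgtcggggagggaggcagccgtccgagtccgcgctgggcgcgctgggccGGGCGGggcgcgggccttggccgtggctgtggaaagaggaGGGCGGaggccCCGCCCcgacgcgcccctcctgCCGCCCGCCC
It holds 7 GC boxes on both strands together, some of which overlap, and its GC content is 82.0%.

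COL7A1 encodes collagen VII, the anchoring fibril that fastens epithelial basement membranes to the stroma beneath and is lost in dystrophic epidermolysis bullosa. It had 2564, 2733 and 2820 counts in HG-NC and 7123, 7598 and 6396 in HG-OE, with no overlap of the groups. Scaled to library size, it rose from 100.9 ± 0.0663 to 241.6 ± 21.6 CPM, a log2 fold change of 1.26 (SE 0.0562, adjusted p = 1.46e-09, edgeR's quasi-likelihood test), and 1.33 without HG-OE replicate 3. Its share of the summed collagen FPKM rose from 4.64% ± 0.0857 to 9.41% ± 0.315. COL7A1 lies at chr3:48564073-48595329, and its 173 well-counted neighbours within 10 Mb moved by a median of 0.51 (log2). With this median removed, 0.75 remained, under the 2-fold threshold, and the part of the region in the rise was not tested.

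The 250 bases before the RefSeq start of COL7A1, chr3:48595330-48595579 of GRCh38.p14 in the direction of the gene (minus strand), are shown as those of the most abundant collagen called. Capitals mark GC boxes and 1 TATA box (TATAAA), which is on the other strand and reads TTTATA here.
COL7A1 promoter: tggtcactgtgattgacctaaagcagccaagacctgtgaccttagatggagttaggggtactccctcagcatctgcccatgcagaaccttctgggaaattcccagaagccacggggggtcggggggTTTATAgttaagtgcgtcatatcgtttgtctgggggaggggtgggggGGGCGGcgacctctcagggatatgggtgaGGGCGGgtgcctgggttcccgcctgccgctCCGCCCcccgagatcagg
It holds 3 GC boxes, and its GC content is 60.8%, below that of the COL5A1 and COL8A2 windows.

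The beaded filament chains of collagen VI, which link cells and basement membranes to the surrounding matrix, differed less. COL6A2 had 4559, 4859 and 5030 counts in HG-NC and 6809, 6918 and 5485 in HG-OE (log2 fold change 0.29, SE 0.0701, adjusted p = 0.00323), and 0.40 without HG-OE replicate 3, which was the lowest of its group. COL6A1 had 2691, 3087 and 3318 counts in HG-NC and 3602, 3769 and 3264 in HG-OE, and did not pass the test (log2 fold change 0.11, SE 0.0574, adjusted p = 0.133, edgeR's quasi-likelihood test). Without HG-OE replicate 3 it passed, at 0.17 (adjusted p = 0.00142, edgeR's quasi-likelihood test). COL6A3, the remaining chain of the common collagen VI trimer, had only 1 to 5 counts in any library, and COL6A5 and COL6A6 had at most 4 and 3. The ratio of COL6A2 to COL6A1 FPKM was 1.76, 1.63 and 1.57 in HG-NC and 1.96, 1.91 and 1.74 in HG-OE, where replicate 3 alone overlapped HG-NC.

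FACIT collagens, which decorate the surface of fibrils, moved in both directions. COL9A2, a chain of the cartilage collagen IX, had 633, 620 and 729 counts in HG-NC and 1949, 1977 and 1797 in HG-OE, and rose from 24.6 ± 1.61 to 65.5 ± 3.59 CPM. Its log2 fold change was 1.41 (SE 0.0623, adjusted p = 1.36e-09, edgeR's quasi-likelihood test) and 1.46 without HG-OE replicate 3. The chains that pair with it in collagen IX were scarce: COL9A3 had 4, 6 and 5 counts in HG-NC and 1, 3 and 15 in HG-OE, and COL9A1 had at most 3 counts in a library. COL14A1, which binds collagen I fibrils, had 4545, 4811 and 4936 counts in HG-NC and 2867, 2815 and 3031 in HG-OE. It fell 1.78-fold without overlap (log2 fold change -0.83, SE 0.0399, adjusted p = 2.80e-09), short of the 2-fold threshold, and its share of the summed collagen FPKM went from 8.92% to 4.26%. COL12A1, its close relative, also fell (log2 fold change -0.44, adjusted p = 0.000307), while COL16A1 rose from 59.8 ± 1.36 to 88.7 ± 5.15 CPM (log2 fold change 0.57, adjusted p = 6.49e-07, all from edgeR's quasi-likelihood test). COL22A1, a collagen of tissue junctions, had a log2 fold change of 0.05 (adjusted p = 0.806). COL19A1, COL20A1 and COL21A1 were below the filter, with at most 12 counts in a library.

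Of the transmembrane collagens only COL17A1, the hemidesmosome collagen that anchors basal keratinocytes, was tested. It had 11, 19 and 17 counts in HG-NC and 22, 40 and 121 in HG-OE. The groups did not overlap, but HG-OE replicate 3 held 66.1% of the HG-OE counts. The log2 fold change was 1.83 (SE 0.510, adjusted p = 0.00816), and 0.87 (adjusted p = 0.0407, edgeR's quasi-likelihood test) without that library, under 2-fold. COL13A1, a collagen of neuromuscular and adhesion junctions, had 3, 1 and 3 counts in HG-NC and 1, 2 and 13 in HG-OE, and COL23A1 had 1 count over all 6 libraries. The summed FPKM of the transmembrane chains was 0.07 to 0.09 in HG-NC and 0.10, 0.19 and 0.55 in HG-OE replicates 1 to 3.

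The multiplexins, basement membrane collagens whose C-terminal fragments have antiangiogenic activity, both rose. COL15A1 had 14, 19 and 18 counts in HG-NC and 103, 94 and 97 in HG-OE, from 0.632 ± 0.0764 to 3.36 ± 0.167 CPM. The log2 fold change was 2.40 (SE 0.211, adjusted p = 6.38e-07, edgeR's quasi-likelihood test), and 2.41 without HG-OE replicate 3. COL18A1, the source of endostatin, had 3122, 3747 and 3899 counts in HG-NC and 5499, 5670 and 4967 in HG-OE, for a log2 change of 0.47 (SE 0.0587, adjusted p = 1.74e-05). COL28A1, which resembles collagen VI in domain make-up, fell from 19, 23 and 11 counts to 9, 6 and 11 (log2 fold change -1.14, SE 0.414, adjusted p = 0.0331), and this call was lost under several other settings. COL26A1 had at most 3 counts in 5 libraries and 16 in HG-OE replicate 3.

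As shares of the summed collagen FPKM, the types kept their order at the top but shifted below it. Basement membrane chains held 30.9% ± 0.223 in HG-NC and 28.6% ± 0.0804 in HG-OE. Network chains fell from 9.56% ± 0.231 to 5.63% ± 0.177, and anchoring fibril rose from 4.64% ± 0.0857 to 9.41% ± 0.315, each without overlap. Multiplexins went from 8.11% ± 0.430 to 9.68% ± 0.128. Fibrillar chains held 2.76% to 2.87% in HG-NC, 2.70% and 2.66% in HG-OE replicates 1 and 2, and 4.44% in HG-OE replicate 3. Transmembrane chains held 0.0410% to 0.0512% in HG-NC, and 0.0478%, 0.0897% and 0.289% in HG-OE replicates 1 to 3. Shares add up to the whole, so a rise of some types lowers the others, and no test was run on them.

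**Figure D3:**
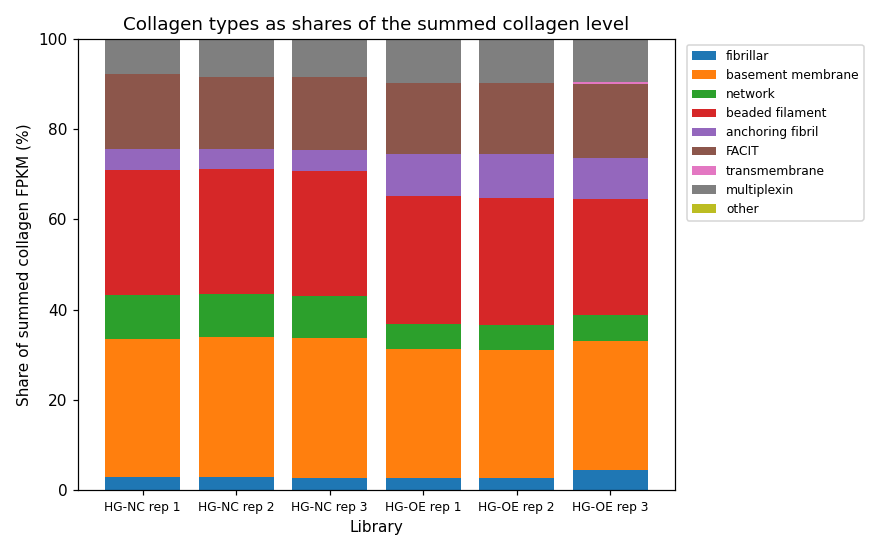
Share of the summed collagen FPKM in percent held by each collagen type, 1 bar per library. The network share is 9.35% to 9.81% in the HG-NC libraries and 5.48% to 5.83% in the HG-OE libraries, and the anchoring fibril share is 4.56% to 4.73% and 9.10% to 9.73%.

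**Figure D4:**
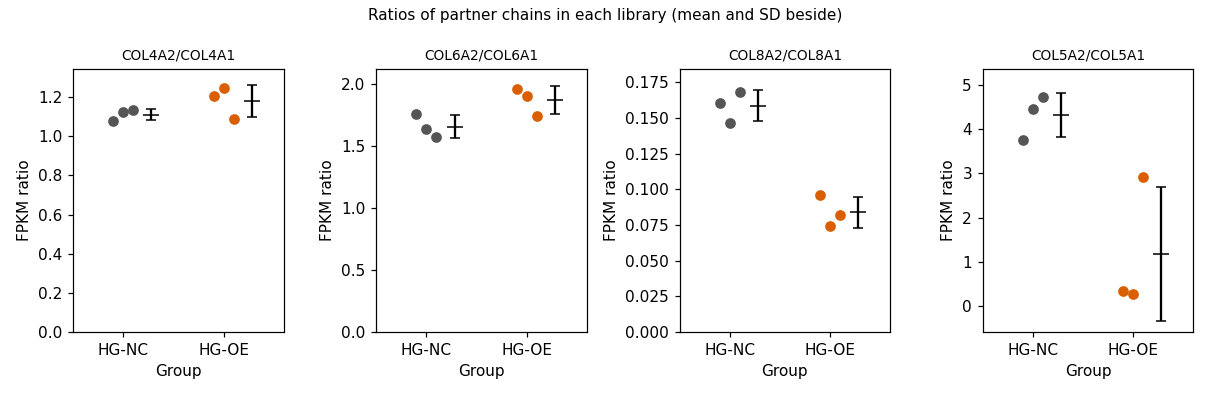
FPKM ratios of partner chains in each library, with the mean and SD beside the points; each panel has its own linear axis. The groups overlap for COL4A2/COL4A1 and COL6A2/COL6A1 and do not for COL8A2/COL8A1 and COL5A2/COL5A1, where HG-OE replicate 3 at 2.92 lies apart from the other HG-OE libraries.

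HG-OE replicate 3 held collagens that the other libraries almost lacked. The 19 genes below the filter summed to 28 to 56 counts in the other 5 libraries and to 365 in HG-OE replicate 3. Over the 43 genes, 7 had at least 80% of their HG-OE counts in it: COL1A2, COL5A2, COL4A3, COL4A4, COL4A6, COL13A1 and COL26A1. Most of the genes that rose did not share this pattern: of the 11 genes higher at an adjusted p under 0.05, HG-OE replicate 3 was the lowest HG-OE library in CPM for 7 and the highest for 3. Of the 19 genes below the filter, 9 were highest in CPM in HG-OE replicate 3. The filter sets aside genes counted in too few libraries, so genes high in a single library fall below it by construction. HG-OE replicate 3 had counts for 26423 genes, against 24342 to 25012 in the other libraries. The shares of all genes with such patterns were not computed here, so these counts say nothing particular to collagens.

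**Figure D5:**
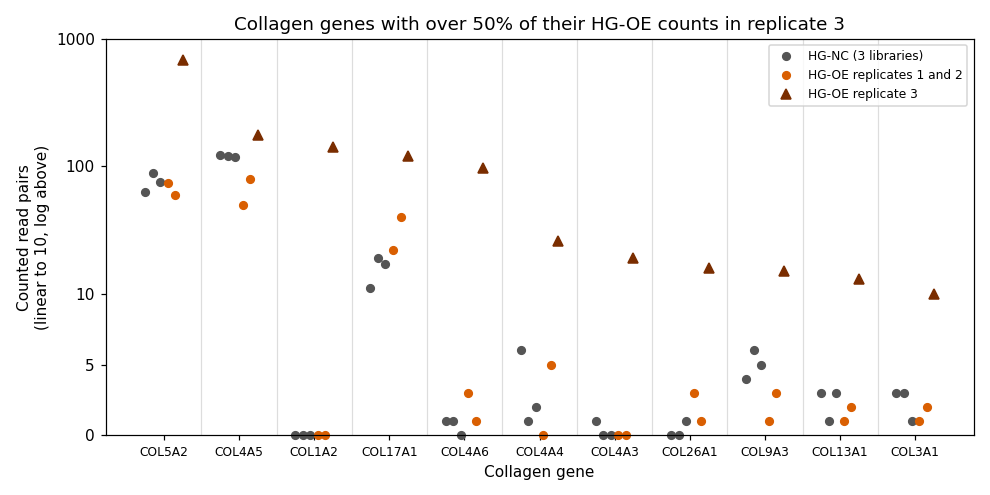
Counted read pairs per library, linear up to 10 and logarithmic above, for the 11 collagen genes with over 50% of their HG-OE counts and at least 10 counts in HG-OE replicate 3 (triangles). COL1A2 is at 0 in the other 5 libraries and at 141 there, and COL5A2 at 59 to 88 and at 679.

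RefSeq promoter windows were used for 31 of the 43 genes. Each window was the 250 bases before a transcript start on GRCh38.p14, searched on both strands. Collagen genes on chromosome 8, COL14A1 and COL22A1, were left out, while the background of 27305 genes had no such restriction. A GC box (GGGCGG) was present for 21 of the 31 genes (67.7%), against 46.2% of the 27305 genes with a window. A CCAAT box (CCAAT) was present for 11 (35.5%), against 37.0%, and a TATA box (TATAAA) for 7 (22.6%), against 13.0%. These are matches of letters, not sites of binding, and genes with several starts had several windows. Among the called genes with a window, those of COL17A1 and COL28A1 held a CCAAT box and no GC box, and the others held a GC box in at least 1 window, whether the gene rose or fell.

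Genes that act on collagen after its synthesis were counted from lists of 61 genes, of which 60 were in the table and 53 were tested. Of these, 1 was called higher and 1 lower at 2-fold, beside 3.69% and 2.13% of all genes. At an adjusted p under 0.05, 24 were higher and 14 lower, beside 25.9% of all genes each way. The counts that rose or fell in a single list use the latter threshold and stand beside the same 25.9%. In the hydroxylation and glycosylation list, 6 of 15 rose and 5 fell. PLOD2, the lysyl hydroxylase of collagen telopeptides, had 9662, 9715 and 10038 counts in HG-NC and 5395, 5246 and 5301 in HG-OE, for a log2 change of -1.01 (SE 0.0389, adjusted p = 5.10e-10, edgeR's quasi-likelihood test). It was at the edge of the 2-fold threshold and just under it without HG-OE replicate 3 (-0.999) or with the median of its neighbours removed (-0.85). P4HB, the most abundant member and the beta subunit of prolyl 4-hydroxylase, had a log2 fold change of -0.12. Among 13 folding and export genes 8 rose and 2 fell, and the most abundant, the chaperone HSPA5, fell by a log2 fold change of -0.10 (adjusted p = 0.0396, edgeR's quasi-likelihood test).

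The counts in this paragraph also stand beside 25.9% of all genes higher and 25.9% lower. Of 6 tested genes for removal of propeptides, 3 rose and 1 fell. The most abundant, the procollagen C-proteinase BMP1, had a log2 fold change of 0.73 (adjusted p = 5.85e-08, edgeR's quasi-likelihood test). In the crosslinking list, 2 of 7 rose and 2 fell. TGM2, a transglutaminase that crosslinks matrix proteins, had 7603, 8158 and 8676 counts in HG-NC and 21829, 23276 and 20766 in HG-OE, for a log2 change of 1.31 (SE 0.0447) and the sole member called higher. LOXL2, a lysyl oxidase and the most abundant member of the list in both groups, did not pass (log2 fold change -0.06, adjusted p = 0.302, edgeR's quasi-likelihood test). Of 7 tested collagen receptors 2 rose and 4 fell, and the integrin subunit ITGB1, with the highest mean over all 6 libraries, rose by a log2 fold change of 0.16. DDR1, a collagen-binding receptor kinase above ITGB1 in HG-NC (31.4 against 29.6 FPKM), fell (log2 fold change -0.32, adjusted p = 4.24e-05, edgeR's quasi-likelihood test). Of 5 tested genes for degradation of collagen 3 rose and none fell, with MMP14, a membrane collagenase, rising by 0.72 on the log2 scale (adjusted p = 4.61e-08, edgeR's quasi-likelihood test).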

How the data were processed

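RNA-seq libraries of HK-2 cells (3 HG-NC, 3 HG-OE) were grouped from their labels, with glucose and time from the study's methods. The authors trimmed reads with the FASTX-Toolkit, aligned them to GRCh38 with HISAT2 and deposited counts of uniquely mapped read pairs per gene, not normalized, and FPKM values rounded to 2 decimals. The counter, its strand setting and the annotation release are not given in the sources used here. ComBat_seq is named in the study's methods, and whether it entered these counts is not stated.

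Counts were tested with edgeR 4.0.16 in R 4.3.3 (quasi-likelihood test, TMM, filterByExpr, Benjamini-Hochberg over 17142 genes). Genes were called at an adjusted p under 0.05 and at least 2-fold, the study's thresholds. Standard errors come from that fit. FPKM was used for levels, shares and ratios only. Neighbour medians used tested genes with a mean of at least 100 counts within 10 Mb, with positions from GENCODE. Promoters come from RefSeq. The steps were tested on simulated data. DESeq2 1.42.0, limma 3.58.1 on log2(FPKM + 1) and log2(FPKM + 0.1), other filters and size factors, a replicate block and leaving out each library were alternatives.

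The collagen genes, their types and the other lists were chosen with earlier results of these data known. Named were HNRNPF, every collagen chain gene, members of the synthesis and turnover lists that were called or had the highest mean FPKM, and marker genes by list. The correlation of same-numbered libraries' deviations was -0.00772, 0.0335 and 0.0053, and that of differently numbered ones was -0.0346 to 0.0274. These values gave no sign of pairing by number. They cannot exclude a shared culture or batch, since a batch correction may have been applied to the counts. Totals were 25507595 to 29444841 counted pairs per library. COL25A1 was not analysed here.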

Additional observations from a re-analysis of the deposited data

How the results depend on the processing

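In the edgeR test on all 6 libraries, 10 collagen genes were called at 2-fold, 6 of them higher and 4 lower, and 19 with an adjusted p under 0.05. In the tests on FPKM with limma these were smaller. On log2(FPKM + 1), 2 genes were called, 2 higher and 0 lower, with 12 at an adjusted p under 0.05, and without the filter 2 were called, 2 higher and 0 lower, with 11 at an adjusted p under 0.05. On log2(FPKM + 0.1), 5 were called, 1 of them lower. Adding a pseudocount to low FPKM values shrinks their folds by construction. The limma fits with a filter also tested only 22 collagen genes, and COL11A1 and COL28A1 were not among them. DESeq2 called 7, of which 2 were lower, and gave no adjusted p for COL5A2. With the median of neighbouring genes removed from the fold change, 7 stayed at least 2-fold, 2 of them lower. The adjusted p was kept from the main test, and the shifted values were not tested. With each library left out in turn, 6 to 9 genes were called, 4 to 6 higher and 2 to 4 lower, and 14 to 22 passed the adjusted p. These fits tested 24 or 25 collagen genes. The shares of all genes called in them and in the other alternatives were not computed. The fewest, 6, came without HG-NC replicate 1, where COL11A1, COL5A2, COL17A1 and COL28A1 lost their calls. Only 2 genes were called lower without HG-NC replicate 1, HG-NC replicate 3 or HG-OE replicate 2. Of the called genes, COL5A2 alone reversed, with a range of -0.29 (without HG-OE replicate 3) to 2.20 over the fits that leave out a library, and it also lost its call without any of the HG-NC libraries. With the replicate block, 8 genes were called and COL5A2 and COL28A1 lost their calls. Whether same-numbered libraries share more than a number is not known. DESeq2's size factors in edgeR kept all 24 genes on the same side. COL5A1, COL15A1 and COL8A2 kept their calls in every edgeR and DESeq2 setting run, and fell under 2-fold in limma on log2(FPKM + 1). COL7A1 stayed over 2-fold there, at a log2 fold change of 1.15, but not with the median of neighbouring genes removed. COL9A2 stayed at 1.32 with that median removed and at 1.46 without HG-OE replicate 3. Where a cause is not named above, it was not tested. COL11A1 and COL28A1 had under 30 counts in every library, which limits their precision.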
